A study of Mus musculus with 2 samples.

Results

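Voltage-gated sodium channels, voltage-gated calcium channels and hyperpolarisation-activated (HCN) channels were followed through a mouse brain section, with the question of which paralog each region used. The genes were all symbols of the deposited feature table that start with Scn and a digit, Cacna, Cacnb, or Hcn and a digit. This rule gave 36 of the 19465 genes on the panel. The rule reads symbols only.

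The study used Visium CytAssist, a probe-based assay that joins probe pairs bound to a transcript and counts the products as unique molecular identifiers (UMIs) on a grid of barcoded spots. The labels give 2 samples of male brain at 6 months of age, one from a mouse of the G2-3 (A53T alpha-synuclein) line and the other Wild Type. The sources used here do not give the promoter of the transgene or how many animals each label stands for. The count matrices under the 2 labels were the same in all 8667725 nonzero entries, so there was 1 library, to which no genotype was assigned, and G2-3 was not compared with Wild Type. Every result below compares regions inside that library. Spots were those marked as tissue in the list deposited under the WT label. The list under the G2-3 label marks other spots, with 2098 of the 2485 used here in both, and which list belongs to this library was not settled.

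A voltage-gated sodium channel is a pore-forming alpha subunit, encoded by an Scn gene ending in a, joined by beta subunits, encoded by the Scn genes ending in b, and it drives the upstroke of the action potential. Calcium channels have a pore subunit of the Cacna1 genes, which sets the current type, and most also bind an intracellular beta subunit (Cacnb) and an extracellular alpha2delta subunit (Cacna2d) that bring them to the membrane. HCN channels open on hyperpolarisation, are bound by cyclic AMP, and carry a depolarising current that paces firing and shortens synaptic potentials in dendrites.

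The 2485 spots used held 20997947 UMIs, with a median of 6686 per spot and a range of 1183 to 80174. Clustering without the channel genes gave 16 regions, each called here by its 2 leading genes, as the map of the regions shows. Lists of region markers named 7 of them. C1ql2/Pcdh20 (68 spots) was dentate gyrus, Clec18a/Igfn1 (145 spots) upper neocortex, Vxn/Myl4 (291 spots) deep neocortex, Irx2/Cdh23 (189 spots) pons and hindbrain, and Mgp/Igf2 (170 spots) meninges. Vxn/Myl4 had 5 of 9 deep neocortex markers at least 2-fold higher, and 3 of 5 layer 6b markers, a deep cortical sublayer, all 3 of them among its 10 leading genes, against 2 of the deep neocortex list. The label white matter went to both Klk6/Trf (186 spots) and Opalin/Cplx3 (86 spots). Opalin/Cplx3 also had 2 of 5 layer 6b markers at least 2-fold higher, Cplx3 and Nxph3, both among its 10 leading genes. Glutamatergic neuron markers summed to 4511 UMIs per 1000000 in Opalin/Cplx3 and to 649 in Klk6/Trf, so the label does not mean white matter alone. The other regions stayed unnamed, among them Gpr161/Fezf2 (184 spots), an arc between the deep neocortical band and the Ddn/Slc1a3 region, and Slc18a3/Prph, which had only 19 spots. A pool called midbrain and hindbrain here held the 6 regions with a marker of the midbrain, raphe, pons, hindbrain or subcortical GABA neuron lists among their 10 leading genes and no white matter marker there. These were Cartpt/Six3, Irx2/Cdh23, Tph2/Slc18a2, Slc6a3/Th, Sp5/Asic4 and Slc18a3/Prph. Of the 8 white matter markers, 7 were at least 2-fold higher in Cartpt/Six3, 7 in Slc6a3/Th and 6 in Tph2/Slc18a2. Their sum ran from 4611 UMIs per 1000000 in Sp5/Asic4 to 16170 in Tph2/Slc18a2 over the pool. It was 1234 in the upper and 2987 in the deep neocortex. The part of oligodendrocytes in comparisons with the pool was not tested. All 4 general neuronal markers of a list were seen in every region of this tissue labelled brain, and their summed level ran from 1066 UMIs per 1000000 (CPM) in Ddn/Slc1a3 to 4699 in Irx2/Cdh23.

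**Figure D1:**
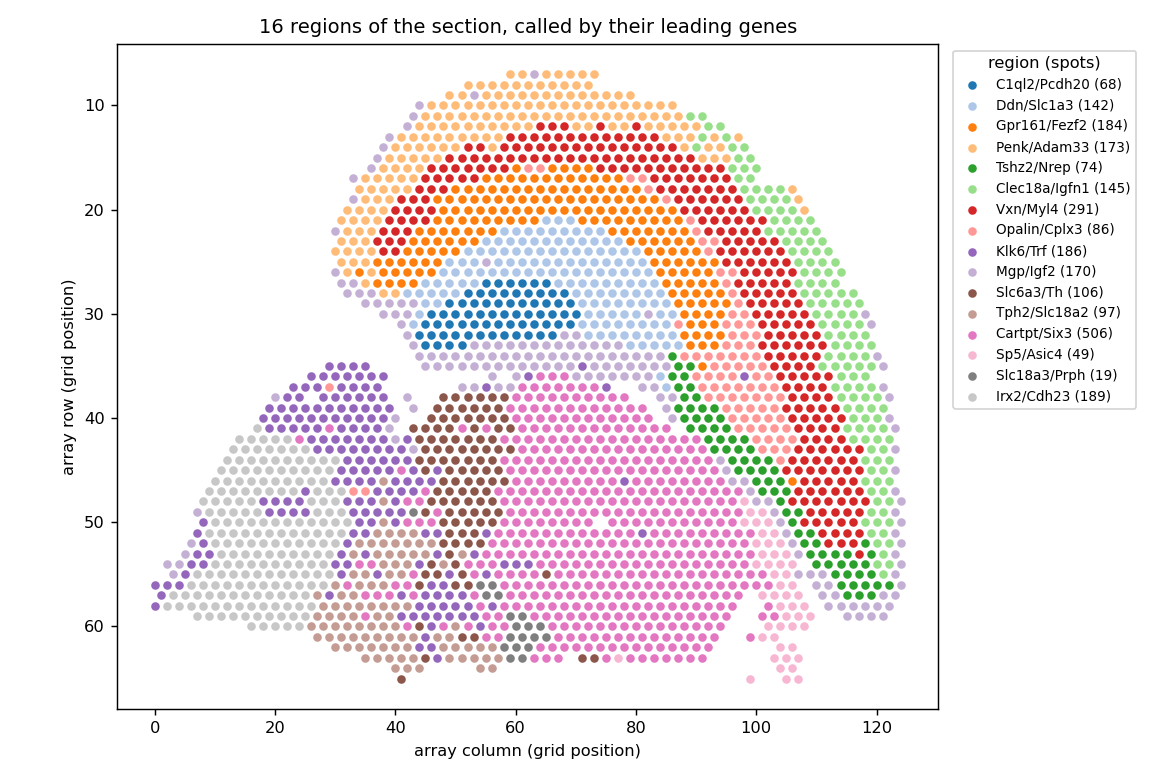
Array row against array column (grid positions) of the 2485 spots, coloured by region, with the number of spots of each in the legend. The Gpr161/Fezf2 spots form an arc between the Vxn/Myl4 band and the Ddn/Slc1a3 spots, with the C1ql2/Pcdh20 spots (dentate gyrus) inside it, and the Irx2/Cdh23 spots lie at the lowest columns.

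The 36 genes together held 82775 UMIs, or 0.394% of all UMIs. At least 100 UMIs were counted for 27 of them, and only these were set against the other spots. A level is the CPM of the UMIs summed over a region's spots, and its 95% interval is an exact Poisson interval. A ratio is the log2 of 2 such levels with an exact conditional interval. A gene was called higher or lower where its level differed by at least 2-fold, at least 100 UMIs were counted over both sides, and the interval excluded 0. Spots of a single section do not replicate a condition. No p-value is therefore given, and all intervals and floors cover counting error only. A spot holds several cells, so fewer cells of a type and less RNA per cell cannot be told apart. Each probe pair has its own efficiency, so a paralog's share of its family is set only against the same share in another region.

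Of the 432 pairs of a channel gene and a region, 26 were called higher and 101 lower than in all other spots. These are 6.02% and 23.4% of the pairs, beside 4.40% and 7.98% over all 176048 gene and region pairs. All 27 genes were called in at least 1 region, and 17 were called higher in some region and lower in another. The same counts per gene were not computed over all genes, so the 27 and the 17 are not read as particular to channel genes. The heat map of log2 ratios shows the calls by region. With all 27 genes counted, lower calls were most numerous in the white matter region Klk6/Trf (17) and in Ddn/Slc1a3 (13). The meninges and the dentate gyrus had 10 each and Irx2/Cdh23 had 9. Higher calls were most numerous in Irx2/Cdh23 and the dentate gyrus, at 5 each, fewer than their lower calls. The shares over all genes are given by region below.

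Among the sodium channel pore genes, Scn1a and Scn2a were highest in different regions. Scn1a encodes the channel known for its part in fast-spiking inhibitory neurons and is a major epilepsy gene. Its level ran from 18.9 CPM in Ddn/Slc1a3 through a median of 148 to 379 (353 to 406) in Irx2/Cdh23, and was 289 in Slc18a3/Prph and 235 in Cartpt/Six3. The 6 highest levels were those of the midbrain and hindbrain pool. Over all other spots it was called higher in Irx2/Cdh23, at 1.49 (1.37 to 1.60), and lower in Ddn/Slc1a3 (-3.11), the meninges (-1.98), Penk/Adam33 (-1.14) and the dentate gyrus (-1.09).

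Scn2a, whose product sits in the axon initial segment of excitatory neurons, ran from 51.8 CPM in Slc18a3/Prph and 53.6 (44.2 to 64.4) in Irx2/Cdh23 through a median of 139 to 258 (235 to 282) in the upper neocortex. The 5 highest regions, from the upper neocortex to the dentate gyrus at 228, had overlapping intervals and were not told apart. It was called higher nowhere, and lower in Irx2/Cdh23 (-1.90), Slc18a3/Prph (-1.85), Sp5/Asic4 (-1.33) and Klk6/Trf (-1.10). Scn1a and Scn2a are neighbours on chromosome 2, 503 kb apart, between Scn3a and Scn9a.

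Set as a share of the UMIs of this pair, Scn1a made up 72.4% (70.6 to 74.2) in the pooled midbrain and hindbrain regions and 35.5% (33.4 to 37.7) in the neocortex. It reached 87.6% in Irx2/Cdh23, where 799 Scn1a and 113 Scn2a UMIs were counted. The same share was 25.6% in the dentate gyrus and 13.0% in Ddn/Slc1a3, the last from 9 and 60 UMIs. The intervals of the midbrain and hindbrain pool and of the neocortex were far apart. The plot of levels by region shows Scn1a to the right and Scn2a to the left in Irx2/Cdh23 and Slc18a3/Prph.

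Scn3a, a pore gene best known from the developing brain, was at 86.4 CPM (73.5 to 101) in the dentate gyrus and at 7.59 in Irx2/Cdh23, with a median of 27.8. It was called higher in the dentate gyrus, at 1.75 (1.48 to 2.01), where it held 15.9% of the alpha-subunit UMIs against 1.33% in Irx2/Cdh23. It was called lower in Irx2/Cdh23 (-2.15), the meninges (-1.51) and Opalin/Cplx3 (-1.47, from 5 UMIs). Scn8a, the main pore of nodes of Ranvier, ran from 34.3 CPM in Tph2/Slc18a2 through a median of 104 to 170 (108 to 256) in Slc18a3/Prph. No region was called higher for Scn8a, and Tph2/Slc18a2 (-1.70), Klk6/Trf (-1.23) and Slc6a3/Th (-1.09) were called lower. Its share of the alpha-subunit UMIs ran from 7.98% in Tph2/Slc18a2 to 30.7% in Slc18a3/Prph.

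The remaining pore genes were rare or unseen. Scn9a, a channel of peripheral sensory neurons, had 88 UMIs, with its highest levels at 27.1 CPM in Tph2/Slc18a2 and 20.9 in the dentate gyrus. The sodium-level sensor Scn7a had 10 UMIs. The nociceptor genes Scn10a and Scn11a had 5 and 1. Scn4a, the skeletal muscle channel, was at 0 UMIs of 20997947.

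**Figure D2:**
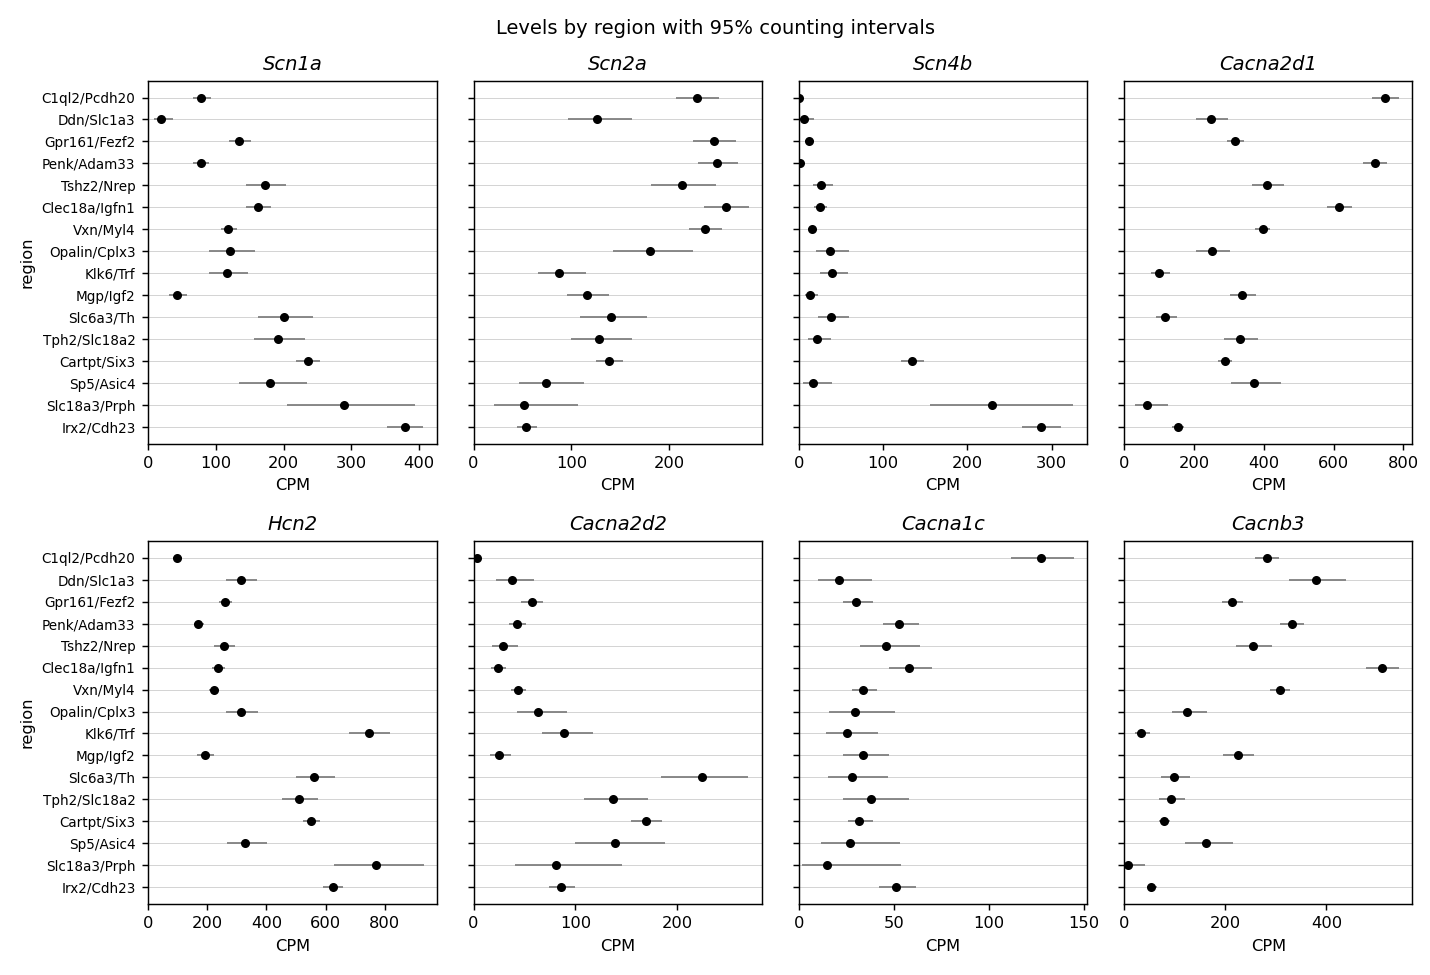
CPM (horizontal axis, linear) of 8 channel genes in the 16 regions (vertical axis), with a point for the level and a line for its exact 95% Poisson interval, which covers counting error only. Scn1a, Scn4b and Hcn2 are highest in the regions at the bottom, Irx2/Cdh23 and Slc18a3/Prph, with Hcn2 also high in Klk6/Trf, while Scn2a and Cacnb3 are low in those regions.

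Among the beta subunits, Scn4b and Scn3b turned in opposite directions between the hindbrain and the dentate gyrus. Scn4b, whose tail serves the resurgent sodium current of fast-firing neurons, was at 287 CPM (264 to 311) in Irx2/Cdh23, 230 (156 to 326) in Slc18a3/Prph and 135 (121 to 149) in Cartpt/Six3. The fourth highest region, Klk6/Trf, was at 38.8 and the median over the regions was 23.3. No Scn4b UMI was counted among the 1864162 of the dentate gyrus, and 3 were counted in Penk/Adam33. Set against a floor of 3 counts over the dentate gyrus, the level in Irx2/Cdh23 was at least 178-fold higher.

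Against all other spots, Scn4b was called higher in Irx2/Cdh23 at 3.08 (2.91 to 3.24), in Slc18a3/Prph at 1.98 (1.41 to 2.49) and in Cartpt/Six3 at 1.49 (1.31 to 1.67). It was called lower in 10 of the 13 remaining regions, and no other channel gene was called in as many regions. On the section maps its signal lies in patches of the lower columns and in scattered patches of the Cartpt/Six3 area. Scn3b, a beta subunit not covalently bound to the pore, was at 123 CPM (108 to 140) in the dentate gyrus against a median of 26.3 and 5.69 in Irx2/Cdh23. The ratio was 2.16 (1.93 to 2.39) in the dentate gyrus and -2.80 (-3.75 to -1.98) in Irx2/Cdh23. Its share of the beta-subunit UMIs was 16.2% in the first and 0.217% in the second. Further lower calls of Scn3b were in Klk6/Trf (-1.87), Tph2/Slc18a2 (-1.54), Sp5/Asic4 (-1.43) and Cartpt/Six3 (-1.12).

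The dentate gyrus had a median of 21830.5 UMIs per spot, the most of all regions, and per spot without scaling by depth the ratio of Scn1a there turned to 0.70. Scn2b, a disulphide-linked beta subunit, had the smallest range of the beta genes, from 60.7 CPM in Klk6/Trf through a median of 134 to 170 in Cartpt/Six3. It was called higher nowhere, and lower in Klk6/Trf (-1.20), Ddn/Slc1a3 (-1.14) and Slc18a3/Prph (-1.04, from 9 UMIs).

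Scn2b and Scn4b lie 8.55 kb apart on chromosome 9. Scn4b had 605 UMIs in Irx2/Cdh23 and 0 in the dentate gyrus, while Scn2b had 240 and 257, of 2109349 and 1864162 UMIs in all. The promoters of Scn2b and Scn4b are shown because the pair joins close neighbours with different regional patterns. That of Hcn2 is shown because its levels followed those of Scn4b over the 16 regions (Spearman 0.84, Pearson 0.85, a description over regions of 1 library that differ in depth). Each sequence is the 250 bases before the gene's start on the plus strand, from RefSeq on GRCm38.p6, with CG dinucleotides in capitals. The windows are chr9:45138374-45138623 for Scn4b, chr9:45117626-45117875 for Scn2b and chr10:79716384-79716633 for Hcn2.
Scn4b: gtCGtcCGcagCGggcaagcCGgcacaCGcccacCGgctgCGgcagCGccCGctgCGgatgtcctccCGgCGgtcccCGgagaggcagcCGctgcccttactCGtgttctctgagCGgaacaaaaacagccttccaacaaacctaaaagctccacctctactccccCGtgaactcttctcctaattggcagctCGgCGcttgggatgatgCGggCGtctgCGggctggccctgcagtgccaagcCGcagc
Scn2b: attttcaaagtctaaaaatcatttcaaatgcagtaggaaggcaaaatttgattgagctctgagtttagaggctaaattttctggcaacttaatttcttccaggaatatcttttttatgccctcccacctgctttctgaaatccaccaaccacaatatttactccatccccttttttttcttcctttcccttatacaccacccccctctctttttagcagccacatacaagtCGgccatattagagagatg
Hcn2: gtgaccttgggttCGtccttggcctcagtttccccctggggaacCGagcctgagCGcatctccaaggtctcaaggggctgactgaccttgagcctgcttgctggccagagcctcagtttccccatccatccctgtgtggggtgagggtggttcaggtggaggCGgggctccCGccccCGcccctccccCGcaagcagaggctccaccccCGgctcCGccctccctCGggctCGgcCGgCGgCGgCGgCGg

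The Scn4b window held 23 CG dinucleotides, more than in 86.7% of the 32851 RefSeq promoter windows of this length, whose median was 6. The Scn2b window held 1, and 7.87% of the windows had fewer. The Hcn2 window held 16, more than in 74.6%. Letters of 3 motifs were searched on both strands. GGGCGG, found in 32.7% of all windows, was in that of Hcn2. CCAAT, found in 33.8%, was in that of Scn4b. TATAAA, found in 12.4%, was in none of the 3, and Scn2b had no match to any. Such a match is a description of the letters only. Of the 36 channel genes, 26 had an entry in the promoter table.

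Of the HCN genes, Hcn2 had its highest levels in Slc18a3/Prph, in the white matter region Klk6/Trf and in Irx2/Cdh23. Hcn2, a member with a strong response to cyclic AMP, was at 770 CPM (629 to 933) in Slc18a3/Prph, 747 (679 to 819) in Klk6/Trf and 625 (592 to 660) in Irx2/Cdh23, with a median of 314 and 98.7 (85.0 to 114) in the dentate gyrus. It was called higher in those 3 regions, at 1.22, 1.21 and 1.05, and lower in the dentate gyrus (-1.86) and Penk/Adam33 (-1.06).

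Klk6/Trf also had the highest summed level of the oligodendrocyte markers, at 41157 CPM with all 8 seen, against a range of 542 to 18233 over the other regions, and the second of the 16 levels was in Opalin/Cplx3, where Hcn2 was at 314 CPM (264 to 371), the eighth of its 16 levels. Over the 16 regions Hcn2 and the oligodendrocyte list had a Spearman correlation of 0.81, a description picked from many computed and with no test, and the part of these cells in the Hcn2 level was not tested. Klk6/Trf spots were shallow, with a median of 2733 UMIs, and per spot without scaling by depth its Hcn2 ratio turned to -0.26.

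Hcn3 and Hcn4 were sparse, with 127 and 122 UMIs. Hcn4, the main channel of the cardiac pacemaker, was called higher in Irx2/Cdh23 (1.67, 1.04 to 2.27, 32 UMIs) and Cartpt/Six3 (1.09, 30 UMIs). Its highest level, 22.2 CPM, was in Slc18a3/Prph, where it was not called. Its 5 lower calls rested on 0 to 5 UMIs each. In the dentate gyrus it was at 0, as was Hcn3, at least 3.96-fold and 4.12-fold lower than in all other spots. Hcn3 was also at 0 in Slc18a3/Prph, and was called higher in Tph2/Slc18a2 (1.49, 0.33 to 2.47, 9 UMIs).

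**Figure D3:**
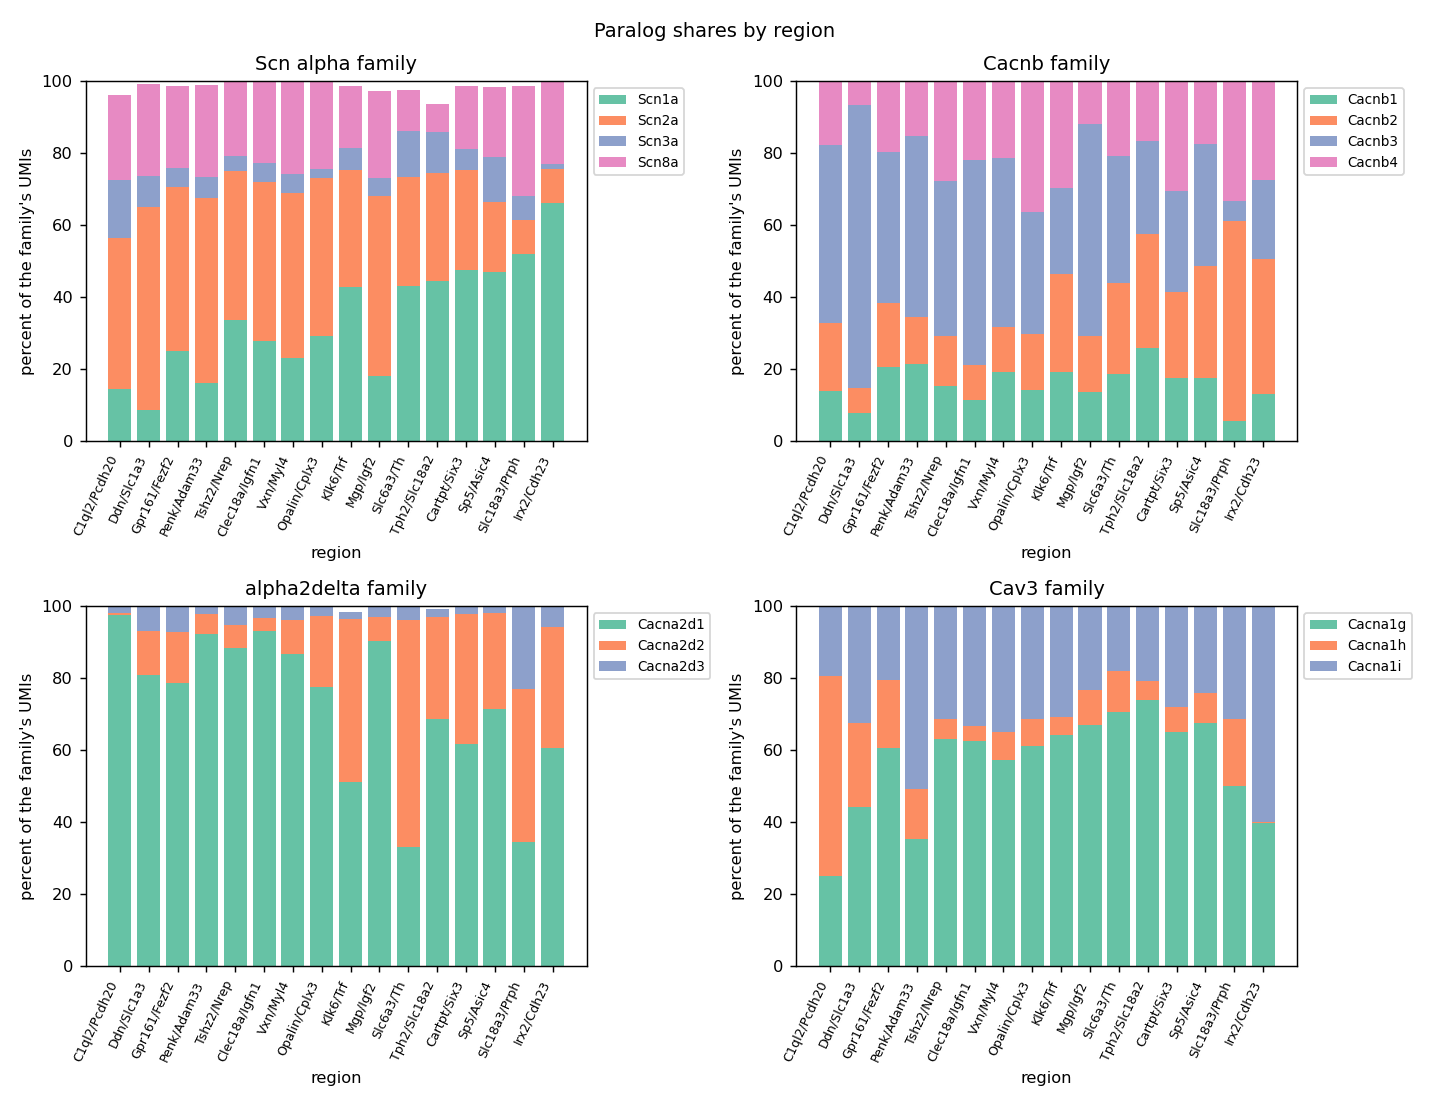
Percent of a family's UMIs (vertical axis, 0 to 100) held by each paralog in each of the 16 regions, for the sodium channel alpha, Cacnb, alpha2delta and T-type (Cav3) families, with paralogs of small share left blank at the top. Scn1a grows to 66.2% in Irx2/Cdh23, Cacnb3 to 78.7% in Ddn/Slc1a3, Cacna2d2 to 62.9% in Slc6a3/Th and Cacna1h to 55.6% in C1ql2/Pcdh20.

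Among the calcium channel pores, the L-type genes were both highest in the dentate gyrus. Cacna1c, the main L-type channel of heart and brain, was at 127 CPM (111 to 144) there, at 58.0 in the upper neocortex and at 14.8 in Slc18a3/Prph, with a median of 32.8. Its dentate gyrus ratio was 1.69 (1.48 to 1.90), and its only other call was lower in Ddn/Slc1a3 (-1.19). Cacna1d, an L-type channel that opens at more negative voltages, was at 142 CPM (126 to 160) in the dentate gyrus and 132 (93.9 to 181) in Sp5/Asic4, which were not told apart, and at 16.9 in Klk6/Trf. Cacna1d was called higher in the dentate gyrus at 1.17, and lower in Klk6/Trf (-2.09), Irx2/Cdh23 (-1.40) and Ddn/Slc1a3 (-1.38). The share of Cacna1c in the L-type UMIs was 64.3% (56.5 to 71.5) in Irx2/Cdh23 and 17.0% (7.65 to 30.8) in Sp5/Asic4. The retinal gene Cacna1f had 3 UMIs and the skeletal muscle gene Cacna1s had 0.

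The presynaptic and R-type pores were called higher in no region. Cacna1a, the P/Q-type channel of fast synapses, ran from 79.8 CPM in Ddn/Slc1a3 through a median of 207 to 314 (289 to 340) in the upper neocortex, and was lower in Ddn/Slc1a3 (-1.44) and the meninges (-1.39). Cacna1b, the N-type channel, ran from 7.40 (1 UMI in Slc18a3/Prph) through a median of 27.8 to 49.0 in Penk/Adam33, with lower calls in Ddn/Slc1a3 (-1.67), Opalin/Cplx3 (-1.55) and Klk6/Trf. Cacna1e, the R-type channel, ran from 23.6 in Klk6/Trf through a median of 66.1 to 167 (151 to 184) in Penk/Adam33 and was lower in 5 regions, from Klk6/Trf at -2.04 to Cartpt/Six3 at -1.03. Their balance still moved, with Cacna1a at 81.0% of the family's UMIs in Sp5/Asic4 and 46.2% in the dentate gyrus, where Cacna1e held 44.1%.

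The T-type genes, which open near the resting potential and support burst firing, included the calcium channel pore with the widest range of shares, Cacna1h. Cacna1g was at 301 CPM (242 to 371) in Sp5/Asic4 and 170 (152 to 189) in the Gpr161/Fezf2 arc, with a median of 89.7 and 21.5 (15.3 to 29.2) in the dentate gyrus. Cacna1i had a like order at its ends, with 108 (74.1 to 153) in Sp5/Asic4 and 16.6 in the dentate gyrus. Cacna1h was instead high in both the arc, at 52.5 (43.0 to 63.5), and the dentate gyrus, at 47.7 (38.3 to 58.8), and at 0.474 in Irx2/Cdh23 from 1 UMI.

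In Sp5/Asic4 the ratio of Cacna1g was 1.68 (1.36 to 1.99) and that of Cacna1i 1.03 (0.48 to 1.54). Both were lower in the dentate gyrus, at -2.28 (-2.77 to -1.83) and -1.79 (-2.35 to -1.27), and the second turned to 0.0064 per spot without scaling by depth. Cacna1g was also called lower in Ddn/Slc1a3 (-1.64), Penk/Adam33 (-1.54), Klk6/Trf (-1.22) and Irx2/Cdh23 (-1.14). Cacna1i was also called lower in Klk6/Trf (-1.44), Slc6a3/Th (-1.31) and Ddn/Slc1a3 (-1.24). Cacna1h was called higher in the arc at 1.78 (1.44 to 2.10) and in the dentate gyrus at 1.57 (1.21 to 1.91), and lower in Irx2/Cdh23 at -5.47 with an interval of -10.77 to -2.98. It was also called lower in Klk6/Trf (-2.52), Tph2/Slc18a2 (-1.41) and the upper neocortex (-1.14). It held 55.6% (47.6 to 63.5) of the 160 T-type UMIs of the dentate gyrus and 0.405% of those in Irx2/Cdh23, where Cacna1i held 59.9%. The share of Cacna1g was highest in Tph2/Slc18a2, at 74.0%.

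The alpha2delta subunits were split between Cacna2d1 and Cacna2d2, which encode the targets of gabapentin. Cacna2d1 was at 748 CPM (709 to 788) in the dentate gyrus and 717 (684 to 752) in Penk/Adam33, with overlapping intervals, then at 616 in the upper neocortex, with a median of 325 and 66.6 in Slc18a3/Prph. It passed the 2-fold rule only downwards, in Slc18a3/Prph (-2.63), Klk6/Trf (-2.05), Slc6a3/Th (-1.82) and Irx2/Cdh23 (-1.51). Cacna2d2 was at 224 CPM (185 to 270) in Slc6a3/Th, 170 in Cartpt/Six3, 139 in Sp5/Asic4 and 137 in Tph2/Slc18a2, and at 3.22 (1.18 to 7.01, 6 UMIs) in the dentate gyrus. It was called higher in these 4 regions, at 1.78, 1.67, 1.03 and 1.03.

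The lower calls of Cacna2d2 were in the dentate gyrus (-4.55, -6.00 to -3.42), the upper neocortex (-1.61), the meninges (-1.53) and Tshz2/Nrep (-1.27). In Slc6a3/Th, led by genes of dopamine neurons, Cacna2d2 held 62.9% (55.4 to 70.0) of the alpha2delta UMIs and Cacna2d1 33.1%. In the dentate gyrus the shares were 0.420% and 97.7%. Cacna2d3 was sparse, from 3.37 CPM in Klk6/Trf, its only call (-2.33, 2 UMIs), to 44.4 in Slc18a3/Prph (6 UMIs), and Cacna2d4 had 10 UMIs.

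Of the intracellular beta subunits, Cacnb3 was called in the most regions, 7 of 16. Its level was 510 CPM (478 to 543) in the upper neocortex, 380 (327 to 440) in Ddn/Slc1a3 and 331 in Penk/Adam33, with a median of 188, 54.0 in Irx2/Cdh23 and 7.40 in Slc18a3/Prph from 1 UMI. The upper neocortex was called higher at 1.33 (1.22 to 1.43), and 6 regions lower, among them Klk6/Trf (-2.81), Irx2/Cdh23 (-2.21) and Cartpt/Six3 (-1.68). Over the 16 regions it followed the summed glutamatergic markers (Spearman 0.90, a description), whose part was not tested. In Ddn/Slc1a3, where 13 channel genes were called lower, its ratio was 0.74 (0.52 to 0.96), under the 2-fold rule.

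Cacnb4, whose loss causes the lethargic mouse, was highest in the upper neocortex, at 196 CPM (176 to 217), and lowest in Ddn/Slc1a3, at 31.5. It was called higher in the upper neocortex at 1.03 (0.86 to 1.19) and lower in 4 regions. Cacnb1, the subunit first known from skeletal muscle, ran from 7.40 in Slc18a3/Prph through a median of 66.2 to 141 in Penk/Adam33, and was lower in 4 regions. Cacnb2, first known from heart, ran from 33.6 in Ddn/Slc1a3 to 149 (108 to 200) in Sp5/Asic4, and was lower in Ddn/Slc1a3 (-1.33) and Klk6/Trf (-1.12). As a share of the Cacnb UMIs, Cacnb3 held 78.7% (72.8 to 83.8) in Ddn/Slc1a3, 56.9% in the upper neocortex and 21.9% (18.4 to 25.7) in Irx2/Cdh23, where Cacnb2 held 37.4%.

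**Figure D4:**
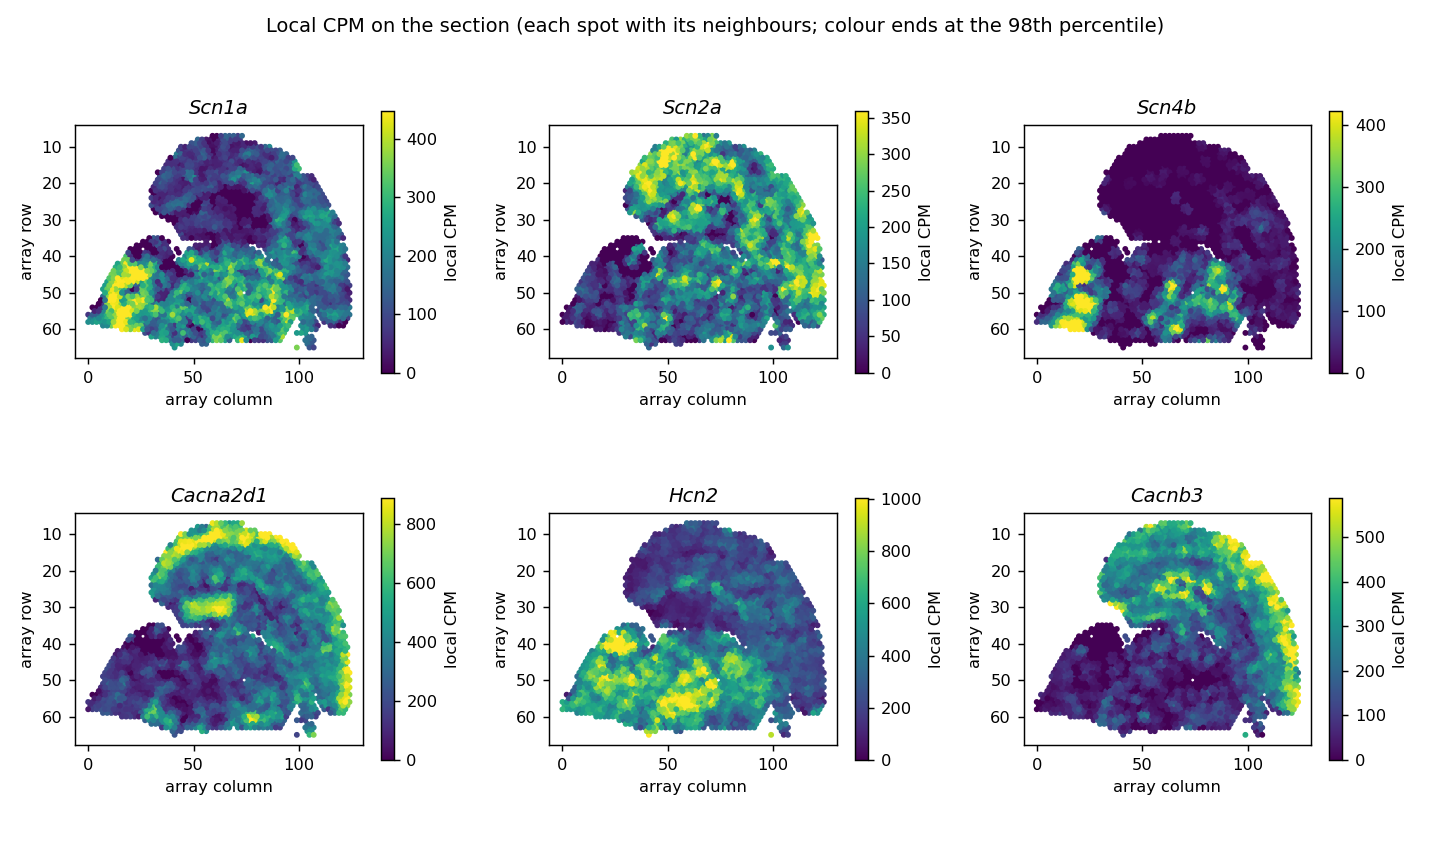
CPM of each spot pooled with its neighbours on the grid (median 7 spots), by array column and row, for 6 channel genes, with the colour ending at the 98th percentile of each gene. Cacna2d1 is bright along the outer edge and in the dentate gyrus, Scn4b marks patches at low columns and in the lower middle, and Cacnb3 is brightest along the outer band at high columns and in patches inside the Gpr161/Fezf2 arc.

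By region, Irx2/Cdh23 had 5 of 27 channel genes called higher and 9 lower, beside 4.09% and 12% of all 11003 genes tested. Scn1a, Scn4b, Hcn2 and Hcn4 were among the higher genes. The median ratio of the 27 was -0.24, against -0.08 over all genes. The dentate gyrus had 5 higher and 10 lower, beside 6.81% and 19.1% of all genes, and its higher genes were Scn3a, Scn3b, Cacna1c, Cacna1d and Cacna1h. Its medians were -0.09 for the channel genes and -0.08 for all genes.

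In Klk6/Trf 17 of the 27 genes were lower and only Hcn2 was higher, beside 10.4% and 8.74% of all genes. The median ratio was -1.22 against -0.11. Ddn/Slc1a3 had 13 lower and none higher, beside 10.5% and 9.05%, with a median of -1.14 against -0.17, and the meninges had 10 lower and none higher, beside 7.24% and 9.36%, with a median of -0.94 against -0.13. General neuronal markers summed to 1380, 1066 and 1215 CPM in these 3 regions, below their level in every other region. The dentate gyrus was next, at 1451. The glutamatergic neuron list went another way, at 7979 CPM in Ddn/Slc1a3, 649 in Klk6/Trf and 3798 in the meninges. The astrocyte list was highest in Ddn/Slc1a3, at 12282. The part of these cell types in the lower calls was not tested.

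The other midbrain and hindbrain regions had mixed calls. Cartpt/Six3 had 3 higher (Cacna2d2, Scn4b and Hcn4) and 4 lower, beside 3.51% and 6.20% of all genes. Tph2/Slc18a2 had 2 higher and 6 lower, beside 4.14% and 6.67%. Slc6a3/Th had 1 higher and 5 lower, beside 5.48% and 5.78%. Slc18a3/Prph had 2 higher and 7 lower, beside 4.11% and 5.68%, and Sp5/Asic4 had 3 higher and 4 lower, beside 4.02% and 4.10%.

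In each of the remaining regions at most 2 channel genes were called higher and at most 4 lower. The upper neocortex had 2 higher (Cacnb3 and Cacnb4) and 4 lower, beside 2.41% and 8.71%. The deep neocortex had none higher and 2 lower (Scn4b and Hcn4), beside 1.24% and 7.46%. Penk/Adam33 had none higher and 4 lower, beside 1.72% and 8.48%. The Gpr161/Fezf2 arc had 2 higher (Cacna1h among them) and 2 lower (Scn4b and Hcn4), beside 1.60% and 7.76%. Tshz2/Nrep had none higher and 2 lower (Scn4b and Cacna2d2), beside 1.77% and 4.23%, and the white matter region Opalin/Cplx3 none higher and 2 lower (Scn3a and Cacna1b), beside 2.37% and 3.34%.

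Between named regions, the neocortex (both bands, 436 spots) was set against the 6 midbrain and hindbrain regions (966 spots). Of 25 channel genes tested, 6 were higher in the neocortex and 4 lower, beside 6.90% and 8.63% of 9679 genes. The largest higher ratio was that of Cacnb3, with 382 and 75.9 CPM (2.33, 2.19 to 2.48), followed by Cacnb1 (1.27), Scn2a (1.22), Scn3b (1.22), Cacnb4 (1.10) and Cacna2d1 (1.03). The lower ratios were those of Scn4b, with 18.9 and 164 CPM (-3.12, -3.44 to -2.82), Cacna2d2 (-1.95), Hcn2 (-1.31) and Scn1a (-1.03). Without the Irx2/Cdh23 region, 4 were higher and 3 lower, and Scn4b was at -2.46, Scn2a at 0.91, Scn3b at 0.85, Cacna2d1 at 0.80 and Scn1a at -0.73. TMM scaling added 0.10 to every ratio of this comparison, which gave 7 higher and 3 lower with Scn1a at -0.93, under the rule. Its largest shift in a region was -0.11, in Slc6a3/Th. The shares of all genes called were not computed without the Irx2/Cdh23 region or with TMM scaling. Those 2 sets of counts are therefore not read as particular to channel genes.

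The dentate gyrus was set against the neocortex, with 4 of 24 genes higher and 7 lower, beside 6.45% and 11.6% of 8138 genes. The higher genes were Scn3b at 1.93 (1.63 to 2.23), Cacna1h at 1.90 (1.42 to 2.39), Scn3a at 1.60 and Cacna1c at 1.57. The lower genes included Cacna2d2 (-3.49), Cacna1g (-2.48) and Cacna1i (-2.06). Hcn2 (-1.21) and Cacna1a (-1.07) were also lower, and these turned to 0.023 and 0.16 per spot without scaling by depth.

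The Gpr161/Fezf2 arc and the dentate gyrus held 2017638 UMIs in 184 spots and 1864162 in 68, with medians of 10802 and 21830.5 UMIs per spot. They differed in 11 of 23 genes, 6 higher and 5 lower in the arc, beside 9.56% and 7.83% of 6411 genes. Per spot without scaling by depth, 3 were higher and 15 lower. The share of all genes called per spot was not computed, so these counts are not read as particular to channel genes. The ratios that follow are scaled by depth. Cacna2d2 (4.15), Cacna1g (2.99), Cacna1i (1.79) and Hcn2 (1.40) were among the genes higher in the arc. Cacna1c (-2.07), Scn3b (-1.87), Scn3a (-1.61), Cacna1d (-1.38) and Cacna2d1 (-1.23) were lower. Scn2a, at 245 and 228 CPM, had overlapping intervals.

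Inside the neocortex the upper band was set against the deep band. None of 22 genes was higher in the upper band and 1 was lower, beside 1.85% and 2.49% of 7193 genes.

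A list of 40 partner genes of these channels was also followed, of which 38 were matched on the panel and 36 had enough UMIs. In the Gpr161/Fezf2 arc 5 of the 36 were higher and 2 lower, against the same 1.60% and 7.76% of all genes. Pex5l, which encodes the HCN channel accessory protein TRIP8b, was at 318 CPM there, against 123 in all other spots, a ratio of 1.37. The highest called ratio was that of Stac, a regulator of L-type channels, at 2.51 (2.06 to 2.96). Pex5l was singled out after its values were seen. It was also higher in the arc than in the dentate gyrus, at 1.73 (1.49 to 1.98), and was called higher in no other region. The lowest called ratio in the arc was that of Cacng5, an AMPA receptor regulator, at -1.07.

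In the dentate gyrus 3 partners were higher and 9 lower, against 6.81% and 19.1%. Nedd4l, a ubiquitin ligase that acts on sodium channels, was the highest at 1.80 (1.70 to 1.89), and Stac2 the lowest at -5.04 (-5.95 to -4.27). In Irx2/Cdh23 3 were higher and 10 lower, against 4.09% and 12%, with Stac2 the highest at 1.75 (1.66 to 1.85) and Fgf11, a member of the intracellular FGF family that binds sodium channels, the lowest at -5.43 from 1 UMI. These ranks of Stac2 are among the partners of 1 region. The level of Scn4b was highest in Irx2/Cdh23 among the regions and 0 in the dentate gyrus, which is another kind of rank. Neocortex over midbrain and hindbrain had 6 of 33 partners higher and 3 lower, against 6.90% and 8.63% of all genes. Their called ratios ran from Cacng3 at 2.60 (2.41 to 2.79) to Cachd1 at -3.08 (-4.07 to -2.22). No partner of 29 was called between upper and deep neocortex, against 1.85% higher and 2.49% lower of all genes.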

How the data were processed

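The authors deposited a matrix of raw UMI counts (genes by spots) from spaceranger 3.1.1, per the file headers, and the submitters' processing notes name mm10. They are whole numbers with no normalization. The probe set version was not stated in any source at hand. Image scale factors and pixel positions were not used.

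Matrix, barcode and feature files were identical under both labels, while position lists were not, so the library entered once, with the tissue spots of the WT list and at least 500 UMIs (2 spots left out). Spots were clustered with scanpy 1.11.5 (Python 3.11.15): 2000 variable genes, channel and partner genes left out, 30 components, 15 neighbours, Leiden resolution 1, seed 0. Doublet callers and deconvolution were not run. A region took a name where at least 3 markers of a class were at least 2-fold higher, more than of any other class, with 1 among its 10 leading genes and its marker of highest fold in that class. This rule and the midbrain and hindbrain pool were set after the clusters were seen.

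Counts were summed over spots. Ratios, shares (Clopper-Pearson) and intervals (95%) used scipy 1.17.1. A count of 0 was set to 3 for a bound. The calculations were tested on simulated data. Alternatives covered the clustering, the spots, the scaling (TMM, edgeR 4.0.16, R 4.3.3), the gene minimum and parts of the array. Each reported channel gene with at least 100 UMIs is given where its level is highest and lowest. Its region calls are named or, for some lower calls, given only by their number. Other channel genes are given by their total. Of the partner list the highest and lowest called ratios are named. The channel genes, marker lists and partner list were chosen with earlier results of these data known. Some channel genes count in totals and in counts of calls, and their own values are not reported here.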

Additional observations from a re-analysis of the deposited data

Results flagged for a closer look

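UMIs of the channel genes were also counted on barcodes not marked as tissue. Of the 2722 barcodes, 235 were not marked as tissue in the WT list, and they held 697435 UMIs, of which 2225 were of channel genes. Of these barcodes, 119 were marked as tissue in the G2-3 list and 116 in neither list, and their median was 2507 UMIs. Which list belongs to the library was not settled, so whether these barcodes lay over tissue is not known. The channel genes were at a level of 3190 CPM, against 3942 CPM over the spots used. The channel-gene UMIs included 285 of Cacna2d1, 173 of Hcn2, 155 of Cacnb3 and 149 of Cacna1a, with Cacna2d1 at 409 CPM on these barcodes and 409 over the spots used. These barcodes entered no comparison but the alternative with all barcodes.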

How the results depend on the processing

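The limits are those of 1 library of 1 section, with no replicate and no genotype comparison. Sparse genes (Hcn3, Hcn4, Cacna1h, Cacna2d3) and small regions (Slc18a3/Prph, 19 spots) have wide counting intervals, and a level of 0 is a bound. No paired analysis was possible because the matrices under both labels are the same and leave 1 library. Of 16 alternatives, 13 were planned and 3 were added after seeing the data. Over the 144 called ratios reported they gave 1834 values, of which 1631 lay within the counting interval, 198 lay outside it with the same direction, and 5 turned direction. The minimum of 20 UMIs per gene changes no ratio, so its 144 values lay within by construction. Leaving white matter and meninges out of the other spots does not alter the ratios between named regions. With the mean UMIs per spot, only 42 of 144 lay within, 97 lay outside and 5 turned.

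All 5 turns came with the mean UMIs per spot, which leaves out scaling by depth: Hcn2 in Klk6/Trf (-0.26), Cacna1i (0.0064) and Scn1a (0.70) in the dentate gyrus, and Cacna1a (0.16) and Hcn2 (0.023) in the dentate gyrus over neocortex. The same setting gave 52 region calls higher and 169 lower. The shares of all genes called at this setting were not computed, so its counts are not read as particular to channel genes. The counts of channel genes higher and lower per spot were 11 and 3 for dentate gyrus over neocortex and 3 and 15 for the arc over the dentate gyrus. They were 15 and 2 for neocortex over midbrain and hindbrain, and 1 was higher for upper over deep neocortex.

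The lower array columns alone gave 2 genes lower for dentate gyrus over neocortex and 3 higher for the arc over the dentate gyrus. The higher columns alone gave 10 region calls higher and 35 lower, and 3 genes higher for neocortex over midbrain and hindbrain. These column sets lack whole regions, and sides under 20 spots gave no value. All barcodes gave 1 gene higher in upper over deep neocortex. The shares of all genes called were not computed for the column sets or for all barcodes. These counts are therefore not read as particular to channel genes. At Leiden resolution 0.6, with 11 regions, each cluster took the label of the region that held most of its spots. The label Slc6a3/Th then covered 434 alpha2delta UMIs, against 178 before, and the share of Cacna2d2 was 41.9%. The label of the upper neocortex covered 2272 Cacnb UMIs, against 1683 before, and the share of Cacnb3 was 53.9%. These shares are thus of larger sets of spots. With spots marked as tissue in both lists, Scn2a held 40.5% of the alpha-subunit UMIs in the upper neocortex. The causes were not tested.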
